A study of Mus musculus with 2 samples.

Results

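Desmosomes are the junctions that rivet neighbouring keratinocytes together and tie their keratin filaments to the cell surface. Desmogleins and desmocollins are the cadherins that span the membrane, plakoglobin (Jup) and the plakophilins bind their tails, and desmoplakin (Dsp) links this plaque to keratin. In the epidermis the cadherins change with differentiation: Dsg3 and Dsc3 are known from the basal and lower layers, while Dsc1 and corneodesmosin (Cdsn) are known from the upper layers, where desmosomes mature into corneodesmosomes. The 10 desmosome genes described here were taken by symbol from the 19465 genes of the count tables: Dsp, Jup, Pkp1, Pkp3, Perp, Dsg3, Dsc1, Dsc2, Dsc3 and Cdsn. Each symbol matched 1 row, and all 10 had at least 20 unique molecular identifiers (UMIs, each marking 1 captured molecule) over the spots of every comparison between regions below.

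Counts came from 2 sections of formalin-fixed back skin, 1 from an S1pr2 fl/fl mouse and 1 from an S1pr2 fl/fl K14-Cre mouse. The latter carries Cre driven by the keratin 14 promoter, which acts in basal keratinocytes and their progeny, and the sections are called fl/fl and K14-Cre below. Both mice carried the floxed S1pr2 alleles, were 8 weeks old, were depilated 1 day earlier and received 62.5 mg of 5% imiquimod (IMQ) cream daily for 7 days, so neither section shows untreated skin. IMQ activates Toll-like receptor 7 and gives psoriasis-like inflammation. With 1 section per genotype no spread between mice was measured, no test was possible, and a difference between the sections cannot be told apart from one between 2 animals, 2 tissue blocks or 2 libraries. All 95% intervals cover counting error only, except that those for shares of spots treat the spots of 1 section as independent draws.

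Probe pairs for mouse genes were ligated on the tissue and captured on an array of barcoded spots, each a small region that holds several cells or parts of cells. There were 1282 spots with 5315351 UMIs over fl/fl tissue and 981 spots with 2845826 UMIs over K14-Cre tissue. Levels are given as CPM, the UMIs of a gene per 1000000 UMIs of all genes in the same spots. Genes differ in their probes, so a level is compared only with the same gene elsewhere. S1pr2 itself had 12 UMIs (11.4 CPM) in the epidermal spots of the fl/fl section and 14 (16.1 CPM) in those of the K14-Cre section, too few to check the deletion, and the position of its probes was not given in the sources used here. The files share 357 barcodes, each at the same array place in both.

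Epidermal spots were those of clusters in which at least 50% of 15 keratinocyte markers were enriched, with the desmosome genes kept out of the clustering. They numbered 208 in the fl/fl section, where 9 to 10 of the 15 markers were enriched in each cluster, and 260 in the K14-Cre section, where 11 to 12 were. The 2 sets of spots were not alike. Keratinocyte markers made up 12.6% of UMIs in the fl/fl epidermal spots and 4.61% in the K14-Cre ones, while the summed level of 9 dermis markers was 2678 and 10013 CPM, of 7 muscle markers 742 and 2969 CPM, and of 7 sebaceous gland markers 256 and 1430 CPM. One K14-Cre cluster of epidermal spots also had over 50% of the sebaceous gland markers enriched, and 167 spots remained without it. In the fl/fl section the cluster with 5 of these 7 markers enriched (230 spots) fell among the other spots. So did a second K14-Cre cluster with 4 of 7 (210 spots), and the sections are not alike in this. In such mixed epidermal spots, fewer keratinocytes and less RNA per keratinocyte cannot be told apart.

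The members lie on 7 chromosomes of the mouse genome (GRCm38.p6, the patch series of mm10, which the submitters' processing notes name). Dsp spans chr13:38151294-38198577, Jup chr11:100368856-100397839, Pkp1 chr1:135871394-135919207, Pkp3 chr7:141078229-141090511, Perp chr10:18845071-18857073 and Cdsn chr17:35543101-35557180. RefSeq promoter windows were at hand for 3 of the 10 members, Dsp, Jup and Cdsn. The 250 bases before an annotated transcription start are printed because these genes differed between the sections by unlike amounts. The Jup window lies before a start inside the gene span given above, so part of the window falls within that span. The strand is that of the gene and capitals mark matches, on either strand, to CCACCC, a motif of KLF factors, or to the half-site of p63, the epidermal regulator; the 2 kinds of match do not overlap.

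Dsp (GRCm38.p6, chr13:38151044-38151293, plus strand): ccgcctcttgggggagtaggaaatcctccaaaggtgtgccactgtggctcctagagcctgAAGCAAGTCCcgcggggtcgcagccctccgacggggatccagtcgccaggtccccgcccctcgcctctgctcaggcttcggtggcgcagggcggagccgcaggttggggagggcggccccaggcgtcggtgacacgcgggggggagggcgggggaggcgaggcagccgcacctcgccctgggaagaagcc
Jup (GRCm38.p6, chr11:100397791-100398040, minus strand): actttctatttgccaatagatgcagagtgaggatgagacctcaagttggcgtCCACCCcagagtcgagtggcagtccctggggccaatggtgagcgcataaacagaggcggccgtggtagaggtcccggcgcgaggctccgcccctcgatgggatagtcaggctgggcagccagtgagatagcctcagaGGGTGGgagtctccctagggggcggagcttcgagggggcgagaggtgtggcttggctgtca
Cdsn (GRCm38.p6, chr17:35542851-35543100, plus strand, the first of its 2 windows): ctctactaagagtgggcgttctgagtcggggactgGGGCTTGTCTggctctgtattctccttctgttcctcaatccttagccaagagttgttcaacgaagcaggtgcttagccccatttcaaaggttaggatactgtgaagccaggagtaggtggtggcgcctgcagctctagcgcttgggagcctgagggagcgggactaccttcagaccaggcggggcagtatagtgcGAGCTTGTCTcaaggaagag

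The Dsp window held 1 p63 half-site, the Jup window 2 copies of CCACCC and the Cdsn window 2 p63 half-sites. The second Cdsn window held 1 CCACCC. Over 32851 promoter windows of the same length, 7.13% held the half-site and 28.1% CCACCC. The AP-1 motif TGANTCA was found in none of the 4 member windows and in 6.75% of all windows, and the grainyhead motif AACCGGT in none of the 4 and in 0.831% of all. These matches are letters in a window and describe no binding.

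The members marked the surface of both sections. Their summed level was 15169 CPM (95% interval 14934 to 15407) in the epidermal spots of the fl/fl section against 5824 CPM (5752 to 5897) in its other spots, a log2 ratio of 1.38 (1.35 to 1.41). In the K14-Cre section it was 7255 CPM (7077 to 7436) against 974 CPM (931 to 1018), a log2 ratio of 2.90 (2.82 to 2.97). In the fl/fl section 7 of 10 members were at least 2-fold higher in epidermal spots, where 4.2% of all genes tested were, and in the K14-Cre section 10 of 10 were, where 22.8% of all genes were. The median log2 ratio over members was 1.28 and 2.68, and over all genes, with 0.5 UMIs added to each sum, -0.76 and 0.26.

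**Figure D1:**
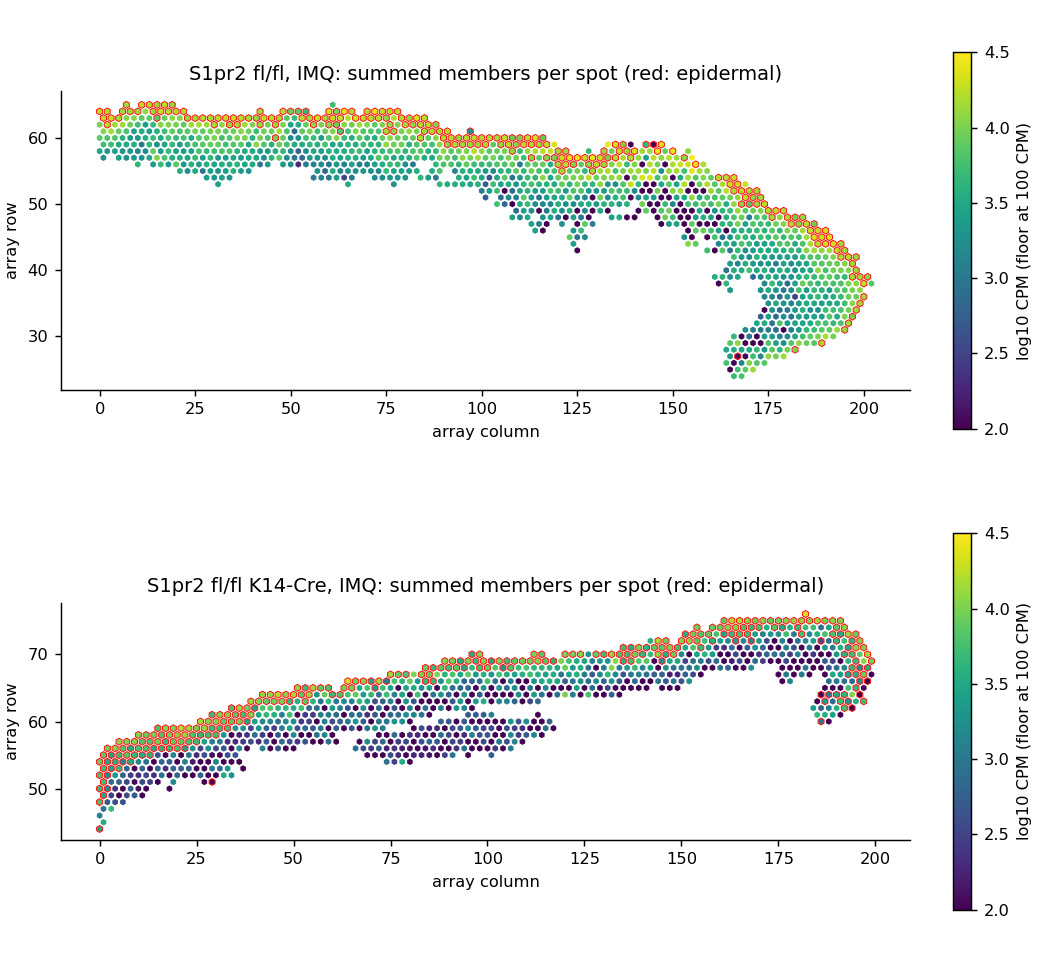
Map of the summed level of the 10 members in each spot (colour, log10 CPM with a floor at 100 CPM) by array column and row, with epidermal spots outlined in red and isolated spots left out. The band of high values runs along the outer edge of both sections, and the tissue beneath it is brighter in the fl/fl section, whose other spots held 5824 CPM against 974 CPM.

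Dsc1, the desmocollin of the upper layers, had the highest ratio of epidermal to other spots in the fl/fl section, with 1609 CPM (1688 UMIs) against 392 CPM. Cdsn, the corneodesmosome glycoprotein, followed with 1092 against 280 CPM. The 3 members under 2-fold there were Dsc3 at 302 against 200 CPM, Dsg3, the pemphigus vulgaris antigen, at 160 against 94.2 CPM, and Dsc2, the desmocollin with the widest tissue range, at 37.2 against 31.4 CPM with a log2 ratio of 0.24 (-0.31 to 0.77). In the K14-Cre section the ratios ran from a log2 of 1.74 for Perp, a tetraspan membrane protein of the p53 and p63 pathways, to 3.48 for the plakophilin Pkp3, at 981 against 88.1 CPM. There Dsc2 stood at 151 CPM in epidermal spots and 25.8 CPM in the others.

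Depth was read from spot position, with the surface taken as the edge of the section on which keratinocyte markers were higher. The direction of the ranks therefore rests on expression. In each array column the tissue spots were ranked from the surface, and the summed level in the fl/fl section was 15077 CPM at rank 1, 10477 at rank 2, 6557 at rank 3, 3854 at rank 4, 3219 at rank 5 and 4530 at rank 6 or more. In the K14-Cre section it was 8794, 4102, 940, 656, 542 and 600 CPM at the same ranks. The level in the fl/fl section was thus lower at ranks 4 and 5 than beneath them, and ranks 5 and deeper of the K14-Cre section held only 173 and 159 member UMIs. The log2 ratio of rank 1 to rank 6 or more was 1.73 (1.68 to 1.79) in the fl/fl section and 3.87 (3.65 to 4.11) in the K14-Cre section. One end of the fl/fl section bends, so that ranks there do not follow depth, and the ratio was 2.80 without it (array columns under 150). Rank 6 or more also held epidermal spots in both sections, 5 of 264 in fl/fl and 11 of 90 in K14-Cre. Rank is therefore an imperfect measure of depth in either section. At least 2-fold higher at rank 1 were 9 of 10 members in the fl/fl section (7.88% of all genes) and 10 of 10 in the K14-Cre section (31.0% of all genes).

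Counted in spot steps from the nearest epidermal spot, the decline was steeper in the K14-Cre section. The summed level at 1, 2 and 6 or more steps was 10581, 6813 and 2671 CPM in the fl/fl section and 2525, 930 and 391 CPM in the K14-Cre section. Keratinocyte markers declined beside the members, from 12.6% of UMIs in epidermal spots to 1.75% at 6 or more steps in the fl/fl section and from 4.61% to 0.24% in the K14-Cre section. Per 1000 keratinocyte marker UMIs, member UMIs stayed between 121 and 160 at all distances in the fl/fl section, and between 158 and 240 in the other. Their part in the deep signal of the members was not tested. The 7 hair markers summed to 19.7 and 15.3 CPM at 6 or more steps in the fl/fl and K14-Cre sections. In the epidermal spots they summed to 22.9 and 74.6 CPM. The part of hair follicles in the deep signal was not tested.

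**Figure D2:**
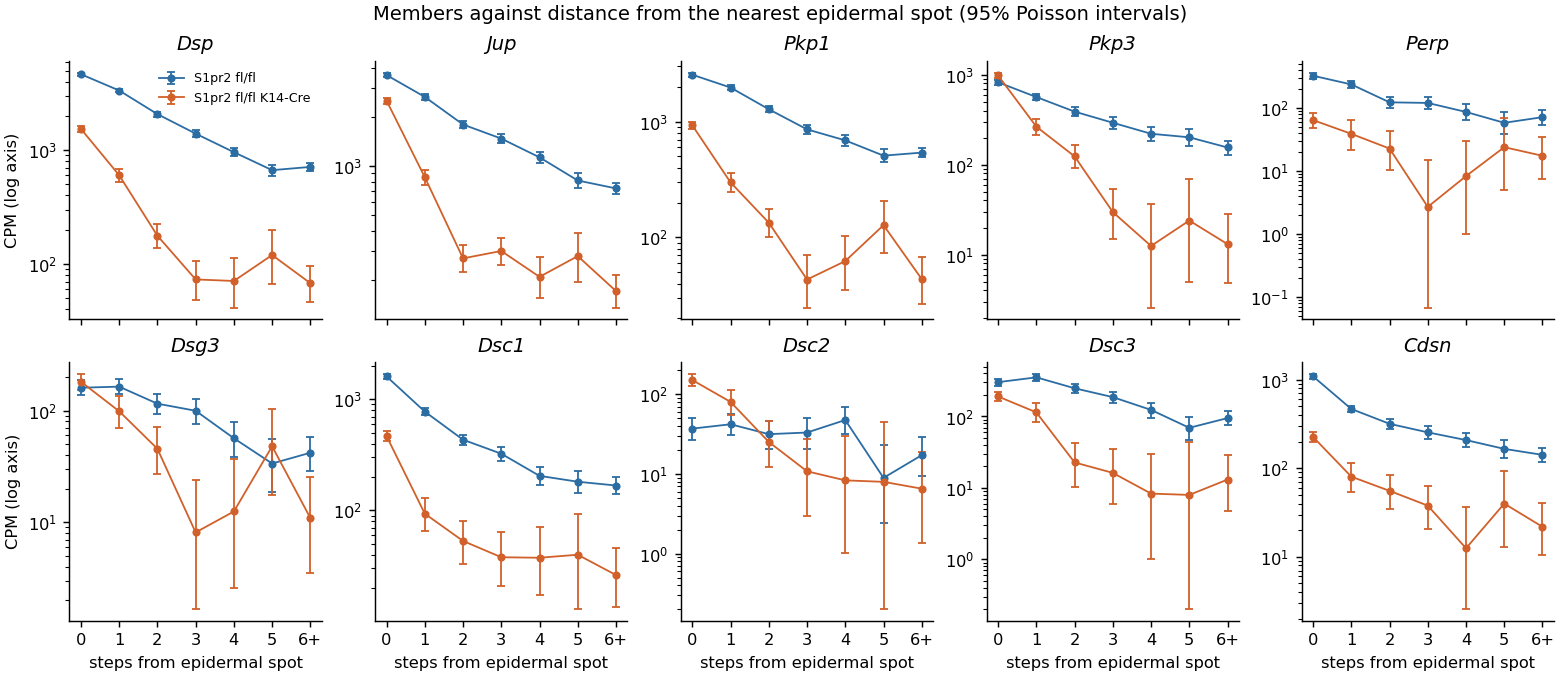
Level of each member (CPM, log axis) against steps from the nearest epidermal spot, 0 being the epidermal spots, with 95% Poisson intervals. Most members decline with distance in both sections and lie lower in the K14-Cre section beneath the epidermis, while Dsc2, Dsg3 and Pkp3 start at or above the fl/fl value.

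Single members differed in how they left the surface. Dsc1 in the fl/fl section was 1609 CPM in epidermal spots, 777 CPM at 1 step and 433 CPM at 2 steps. Dsc3 was 302, 353 and 248 CPM at the same distances, and Dsg3 was 160, 164 and 115 CPM, so that neither was lower 1 step beneath the epidermal spots than in them. Cdsn dropped from 1092 to 468 CPM within 1 step. In the K14-Cre section Dsc3 was 191 CPM in epidermal spots and 114 CPM at 1 step, and Dsc1 was 467 and 93.4 CPM. Dsg3 there had 106 UMIs (203 CPM) at rank 1 and 0 at rank 6 or more, at least 17.9-fold lower when the 0 is set to 3 UMIs.

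The share of spots with at least 1 UMI was read against spots of muscle marker clusters, tissue that should hold few keratinocytes. Keratinocyte markers still made up 1.85% of UMIs in these spots of the fl/fl section and 0.28% in the K14-Cre section, so the 2 references are not alike. After thinning to 1000 UMIs per spot, which left out 29 and 22 shallower epidermal spots, Dsp was found in 96.1% of 179 fl/fl epidermal spots (exact binomial interval 92.1 to 98.4%) and in 46.8% of 216 muscle marker spots. It was found in 70.2% of 238 K14-Cre epidermal spots (63.9 to 75.9%) and in 9.25% of 292 muscle marker spots. Dsc2 was found in 2.23% (0.61 to 5.62%) and 12.2% (8.31 to 17.0%) of the epidermal spots, against 0 of 216 (exact upper limit 1.69%) and 0.68% of the muscle marker spots. Spots of a section are not replicates, so these intervals measure no spread between mice. Without thinning, the Dsp shares in epidermal spots were 98.6% and 86.5% at median depths of 3750 and 2667.5 UMIs, while Dsc2 was found in 27 of 208 and in 59 of 260 spots. The muscle marker spots had median depths of 2207 and 2179 UMIs.

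Epidermal spots were then ordered by a suprabasal index, the log2 ratio of 7 suprabasal to 6 basal keratinocyte marker genes in a spot. The index uses no desmosome gene, and 1 UMI was added to each sum. The spots were divided into a lower, a middle and an upper group near equal in spot number. Median depth in the lower and upper groups was 4100.5 and 3442 UMIs in the fl/fl section and 3846 and 1536.5 in the K14-Cre section. Dermis markers summed to 2670 and 2413 CPM, and to 13542 and 5742 CPM. The part of depth and dermis in the values along the index was not tested. Cdsn followed the index most closely. It was 864, 1033 and 1371 CPM from the lower to the upper group in the fl/fl section and 167, 213 and 377 CPM in the K14-Cre section, with log2 ratios of upper to lower of 0.67 (0.46 to 0.88) and 1.18 (0.67 to 1.69). Dsg3 ran the other way, with 235, 146 and 101 CPM and with 231, 136 and 150 CPM. Its log2 ratio was -1.21 (-1.82 to -0.63) in the fl/fl section and -0.62 (-1.30 to 0.01) in the K14-Cre section, where the interval reaches 0. Dsc1 was 1597 and 1672 CPM in the lower and upper fl/fl groups, a log2 ratio of 0.07 (-0.10 to 0.24) whose interval holds 0. In the K14-Cre section it was 359 and 549 CPM, a log2 ratio of 0.61 (0.23 to 1.00). The Dsc3 intervals held 0 in both sections, at -0.32 (-0.74 to 0.09) in fl/fl and -0.43 (-1.13 to 0.23) in K14-Cre.

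Few Dsc2 UMIs were counted in the fl/fl section. It had 25, 11 and 3 UMIs there (71.6, 32.0 and 8.43 CPM), a log2 ratio of -3.09 (-5.46 to -1.37), and 69, 33 and 30 UMIs (177, 110 and 166 CPM) in the K14-Cre section, a log2 ratio of -0.09 (-0.76 to 0.55). Past 2-fold lower in the upper group were 2 of 10 members in the fl/fl section, Dsg3 and Dsc2, where 8.75% of all genes were, and 0 of 10 in the K14-Cre section, where 16.1% were. Past 2-fold higher were 0 of 10 (5.73% of all genes) and 1 of 10, Cdsn (7.84%). The plaque genes moved little along the index. Dsp was 4974 and 4459 CPM in the lower and upper groups of the fl/fl section and 1422 and 1664 CPM in those of the K14-Cre section, and Jup, the catenin shared with adherens junctions, was 4184 and 3335 CPM and 2554 and 2530 CPM.

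The balance of Dsc1 to Dsc3 sets a suprabasal against a basal desmocollin and does not depend on the UMIs of other genes. In the fl/fl section there were 4.94 Dsc1 UMIs per Dsc3 UMI in the lower group and 6.47 in the upper, a log2 change of 0.39 (-0.06 to 0.84) whose interval reaches 0. The K14-Cre values were 1.84 and 3.81, a log2 change of 1.05 (0.27 to 1.85). With depth the balance in the fl/fl section went from 4.69 at rank 1 to 2.39 at rank 2 and 2.00 at rank 3. It fell no further beyond rank 4, at 1.95, 2.54 and 2.49 at ranks 4, 5 and 6 or more. In the K14-Cre section it went from 2.94 to 1.20 between ranks 1 and 2, and the 14 Dsc3 UMIs at rank 3 allow no finer reading. Cdsn to Dsc3 changed more along the index, by a log2 of 0.99 (0.52 to 1.45) and 1.61 (0.76 to 2.48).

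**Figure D3:**
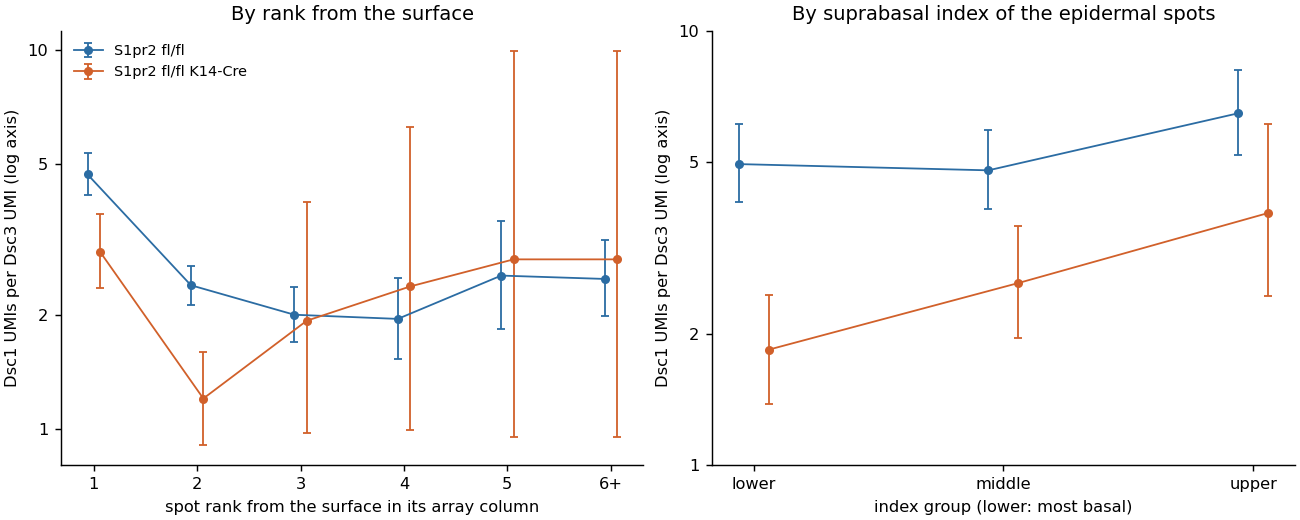
Dsc1 UMIs per Dsc3 UMI (log axis) by rank from the surface, left, and by suprabasal index group of the epidermal spots, right, with 95% intervals. The balance is highest at rank 1 and in the upper index group, and in the epidermal spots it was 5.32 in the fl/fl section and 2.45 in the K14-Cre section. In the K14-Cre section the intervals at rank 3 and deeper hold the rank 1 value of 2.94. In the fl/fl section the interval of the log2 change from the lower to the upper group holds 0.

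Between the sections, the members' share of UMIs in epidermal spots was lower in the K14-Cre section by a log2 of -1.06 (-1.11 to -1.02), from 15910 UMIs (15169 CPM) to 6322 UMIs (7255 CPM). At least 2-fold lower were 5 of 10 members, Dsp, Pkp1, Perp, Dsc1 and Cdsn, where 7.82% of 10917 genes were, and 1 of 10, Dsc2, was at least 2-fold higher, where 42.4% of genes were. The median log2 ratio of all these genes was 0.71, and 9 of 10 members lay below it. Chemosensory receptor genes, which skin should hardly express, averaged 1.13 CPM per gene in the fl/fl epidermal spots and 8.83 CPM in the K14-Cre ones. With their mean UMIs taken off each member, the summed log2 ratio was -1.08 and that of Perp, which moved most, -2.54 in place of -2.33.

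The direction of the summed difference depended on the scale. With the TMM factor of edgeR, which centres on most genes, the log2 ratio was -2.12. Per keratinocyte marker UMI it was 0.38, because the sum of the 15 markers was itself lower by a log2 of -1.45. Single markers differed: 8 were at least 2-fold lower (7.82% of all genes) and 4 were within 2-fold. The other 3, Krt15, Krt2 and Sfn, were at least 2-fold higher (42.4% of all genes). Member UMIs per 1000 keratinocyte marker UMIs were 121 in the fl/fl epidermal spots and 158 in the K14-Cre ones. The summed basal markers were lower by a log2 of -0.55 and the summed suprabasal ones by -2.41. Krt14 gave 33221 of 37675 basal marker UMIs in the fl/fl epidermal spots and 16916 of 21321 in the K14-Cre ones. By CPM, Krt14 and Col17a1 were lower in the K14-Cre section, while Krt5, Krt15, Itga6 and Itgb4 were higher. On the keratinocyte marker scale the 5 members named as 2-fold lower were within 2-fold, with log2 ratios from -0.89 for Perp to -0.01 for Pkp1. Jup and Dsc3 turned higher per keratinocyte marker UMI, with log2 ratios of 0.92 and 0.78, and Pkp3 and Dsg3 were past 2-fold higher, at 1.70 and 1.63.

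Among the plaque genes, Dsp was 4654 CPM (4524 to 4786) in the fl/fl epidermal spots and 1539 CPM (1458 to 1624) in the K14-Cre ones, a log2 ratio of -1.60 (-1.68 to -1.51). Pkp1, the main plakophilin of the suprabasal layers, was 2539 and 928 CPM, a log2 ratio of -1.45 (-1.57 to -1.34). Jup was 3628 and 2526 CPM, a log2 ratio of -0.52 (-0.60 to -0.45). Pkp3, found in all living layers, was 824 and 981 CPM, a log2 ratio of 0.25 (0.11 to 0.39) that turned to -0.81 with the TMM factor and to -0.24 over all spots and was 0.55 with coarser clustering (resolution 0.5) and 1.70 per keratinocyte marker UMI. Perp had the lowest ratio of the members, with 324 CPM (340 UMIs) and 64.3 CPM (56 UMIs) and a log2 ratio of -2.33 (-2.77 to -1.92).

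The cadherin members Dsg3, Dsc1, Dsc2 and Dsc3 lie within 580.4 kb of each other on chromosome 18. Dsc1 was 1609 CPM (1534 to 1688) and 467 CPM (423 to 515), a log2 ratio of -1.78 (-1.94 to -1.63). Dsc3 was 302 and 191 CPM, a log2 ratio of -0.67 (-0.95 to -0.39). Dsg3 was 160 and 181 CPM, a log2 ratio of 0.18 (-0.14 to 0.50) whose interval holds 0 on the CPM scale, while the ratio was -0.88 with the TMM factor and 1.63 per keratinocyte marker UMI. Dsc2 alone of the 10 was past 2-fold higher in the K14-Cre section, with 39 UMIs (37.2 CPM) and 132 UMIs (151 CPM) and a log2 ratio of 2.03 (1.50 to 2.58). Its UMIs exceeded those of 95% of the receptor genes, at most 4 and 18 in the same spots. Its log2 ratio was 1.98 with the mean receptor UMIs taken off. The receptor genes were themselves higher there, at 1.13 and 8.83 CPM per gene, and the source of the Dsc2 difference was not tested. Dsc2 fell short of 2-fold with the TMM factor (0.97) and over all spots (0.98), and was 3.47 per keratinocyte marker UMI. Cdsn was 1092 CPM (1145 UMIs) and 226 CPM (197 UMIs), a log2 ratio of -2.27 (-2.50 to -2.05).

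**Figure D4:**
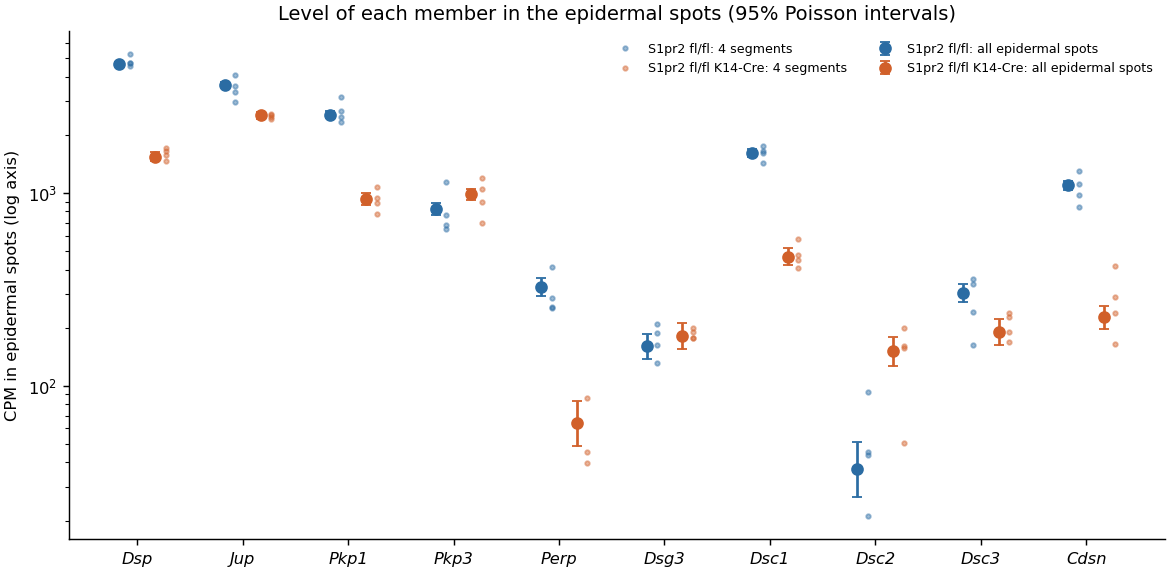
Level of each member in the epidermal spots (CPM, log axis) for all epidermal spots of a section (large points, 95% Poisson intervals) and for 4 segments along each section (small points; 1 Perp segment of the K14-Cre section with 0 UMIs is not drawn). Segments of the 2 sections are apart for Dsp, Jup, Pkp1, Perp, Dsc1 and Cdsn and mix for Pkp3, Dsg3, Dsc2 and Dsc3. How many of all genes lie apart in this way was not counted.

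Along each section the epidermal spots were divided into 4 segments, which are parts of 1 sample and no replicates. The summed level was 14669 to 15705 CPM over the fl/fl segments and 7130 to 7508 CPM over the K14-Cre ones. Dsp, Jup, Pkp1, Perp, Dsc1 and Cdsn were lower in the K14-Cre section in all 16 pairs of segments. Jup, for example, ran from 2958 to 4098 CPM and from 2406 to 2569 CPM. Dsc2 was higher in 15 of 16 pairs, at 21.1 to 93.2 CPM and 50.7 to 199 CPM, Pkp3 in 12, Dsg3 in 10 and Dsc3 in 4. How many of all genes lie apart in all 16 pairs was not counted, so these counts set no member against genes at large.

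Since the summed difference follows the scale, the makeup of the member UMIs was compared too, which no scaling changes. Of all member UMIs in the epidermal spots, Dsp gave 30.7% in the fl/fl section and 21.2% in the K14-Cre section, and Jup gave 23.9% and 34.8%. The share of Pkp3 was 5.43% and 13.5%, a log2 ratio of 1.32 (1.18 to 1.45), while that of Pkp1 was 16.7% and 12.8%. The 2 plakophilins therefore stood at 3.08 Pkp1 UMIs per Pkp3 UMI in the fl/fl section and 0.95 in the K14-Cre section, a log2 change of -1.70 (-1.88 to -1.52). Dsc1 gave 10.6% and 6.44%, Cdsn 7.20% and 3.12% and Perp 2.14% and 0.89%. Dsg3 gave 1.06% and 2.50%, Dsc3 1.99% and 2.63%, and Dsc2 0.25% and 2.09%, the last with a log2 ratio of 3.09 (2.57 to 3.64).

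**Figure D5:**
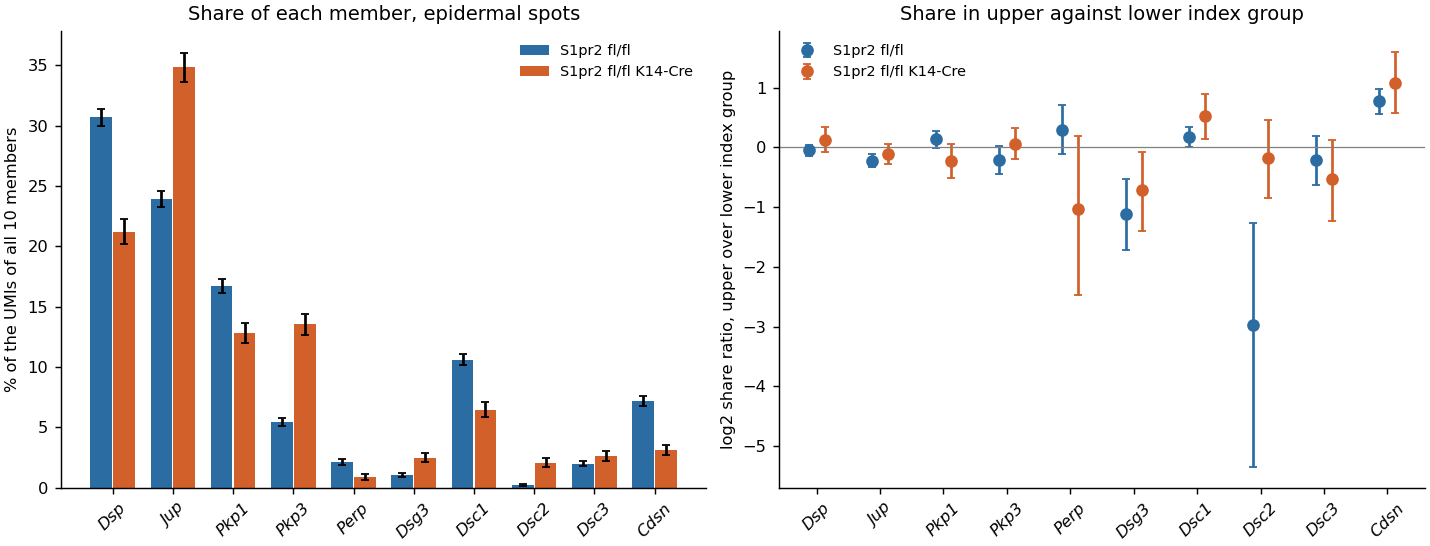
Left, percent of the UMIs of all 10 members given by each member in the epidermal spots of each section, with exact binomial 95% intervals. Right, log2 ratio of this share in the upper against the lower suprabasal index group; Cdsn is above 0 and Dsg3 below 0 in both sections, and the interval of Dsc2 is wide in the fl/fl section, where it had 3 UMIs in the upper group.

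The shares of Jup, Pkp3, Dsg3 and Dsc2 were higher in the K14-Cre section in 16 of 16 pairs of segments, and that of Dsc3 in 15. The shares of Dsp, Pkp1, Perp and Dsc1 were higher there in 0 of 16 pairs and that of Cdsn in 1. Shares sum to 100%, so some rise when others fall. How often shares of other genes lie apart over the segments was not counted. By CPM, Dsc2 was higher in the K14-Cre section in 15 pairs, Pkp3 in 12, Dsg3 in 10, Dsc3 in 4 and Jup in 0. The balance of Dsc1 to Dsc3 was 5.32 in the fl/fl epidermal spots (1688 and 317 UMIs) and 2.45 in the K14-Cre ones (407 and 166 UMIs), a log2 change of -1.12 (-1.44 to -0.80). By segment it was 3.98 to 10.1 and 1.98 to 2.82, with no overlap, the 10.1 resting on 7 Dsc3 UMIs. How many other pairs of genes lie apart in this way was not counted. Over all spots of the sections the log2 change of Dsc1 to Dsc3 was -0.42.

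The suprabasal index itself differed between the sections, with a median of 0.71 in the fl/fl epidermal spots and -0.93 in the K14-Cre ones. Of the latter, 213 lay at or below the limit of the fl/fl lower group, and they held 368 Dsc1 and 154 Dsc3 UMIs, 2.39 Dsc1 per Dsc3, while the fl/fl lower group held 558 and 113, 4.94 per Dsc3. These 2 sets are not matched on the index, as only an upper limit was set. The median index was -0.16 in the fl/fl lower group, and -1.80 and -0.93 in the lower and middle K14-Cre groups. In their log2 ratio between sections 6 of 10 members, Dsp, Pkp1, Perp, Dsc1, Dsc3 and Cdsn, lay between the summed basal markers at -0.55 and the summed suprabasal markers at -2.41. The other 4, Jup, Pkp3, Dsg3 and Dsc2, lay above the basal markers, at -0.52 to 2.03. The median of all genes, 0.71, also lay above the basal markers, and the share of all genes in either range was not counted. The intervals of Jup (-0.60 to -0.45) and Dsc3 (-0.95 to -0.39) hold the basal value of -0.55, so the side on which they lie is not settled. Those of Perp (-2.77 to -1.92) and Cdsn (-2.50 to -2.05) hold the suprabasal value of -2.41, so their side of it is not settled either. The basal value rests mostly on Krt14.

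Of 9 other desmosome genes, 3 were at least 2-fold lower in the K14-Cre epidermal spots (7.82% of all genes), 1 was at least 2-fold higher (42.4% of all genes), 2 were within 2-fold and 3 had under 20 UMIs. Dsg1a and Dsg1b are desmogleins known from the upper layers and near copies of each other, whose reads may be hard to part. Dsg1a was 611 and 141 CPM and Dsg1b 1484 and 395 CPM, log2 ratios of -2.11 and -1.91. Between the upper and lower index groups of the fl/fl section, Dsg1a had a log2 ratio of 0.29 (0.01 to 0.57). That of Dsg1b was -0.30 (-0.48 to -0.13), lower in the upper group. In the K14-Cre section both intervals held 0, at 0.51 (-0.25 to 1.25) and 0.30 (-0.13 to 0.71). Periplakin (Ppl), a plakin of the cornified envelope, was 697 and 218 CPM, a log2 ratio of -1.68, while its partner envoplakin (Evpl) was 1386 and 1096 CPM, a log2 ratio of -0.34 (-0.46 to -0.22). Pkp2, the plakophilin of heart and simple epithelia, went from 2 to 39 UMIs (log2 ratio 4.55, interval 2.60 to 7.65). Its 2 fl/fl UMIs did not exceed those of 95% of receptor genes, at most 4 there, while its 39 exceeded the 18 of the K14-Cre spots. The receptor genes were themselves higher there, at 1.13 and 8.83 CPM per gene, and the source of the Pkp2 difference was not tested. Pkp4 counted 17 and 23. Dsg1c, Dsg2 and Dsg4 had 0 to 17 UMIs in either set of spots, at or below the 18 UMIs under which 95% of receptor genes lay in the K14-Cre epidermal spots.

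The adherens junction is the actin-linked junction beside the desmosome. Of its 9 genes, 2 were at least 2-fold lower (7.82% of all genes), Nectin4 with a log2 ratio of -1.12 and afadin (Afdn) with -1.34, 0 were at least 2-fold higher (42.4% of all genes), and the median was -0.49 against -1.06 for the desmosome genes and 0.71 for all genes. The log2 ratio of the summed adherens junction genes was -0.43 on the CPM scale and 1.02 per keratinocyte marker UMI, where that of the summed desmosome genes was -1.06 and 0.38. E-cadherin (Cdh1) was 170 and 165 CPM, a log2 ratio of -0.04 (-0.37 to 0.29), and beta-catenin (Ctnnb1) was 150 and 162 CPM, a log2 ratio of 0.11 (-0.23 to 0.45). Whether the 2 lists differ was not tested. All 9 lay below the median of all genes, as did 9 of 10 desmosome genes.

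The genes with the depth profile most like that of the summed members, over 24 bins of rank and segment in each section and 5674 genes ranked, were Krt14, the basal keratin whose promoter drives the Cre here, the galectin Lgals7, Krtdap, Fabp5 and Krt17. Their Pearson r to the members was 0.94 to 0.98, a description of bins that share a section. Their log2 ratios between the epidermal spots were -0.71, -0.29, -1.52, -0.38 and -0.43.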

How the data were processed

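Raw UMI counts of each gene in each tissue spot were deposited by the authors with the spot positions; the file header names Space Ranger 3.0.0, the submitters' notes name mm10, and the study processed images and reads in Partek Flow. Probe-based counts depend on the probes of each gene. The members and gene lists were chosen with earlier results of these data known. Spots with at least 50 UMIs were clustered per section (Leiden, resolution 1, on 20 principal components of 2000 variable genes, 15 neighbours, seed 0; igraph 0.11.9 and scanpy 1.11.5 under Python 3.11.15). Counts were summed over spots and given as CPM, with exact Poisson, Clopper-Pearson or conditional binomial 95% intervals from scipy 1.17.1. Median depth was 3542.5 UMIs per spot in the fl/fl and 2319 in the K14-Cre section. Fold calls needed 20 UMIs and 2-fold. With 1 section per genotype no p-value was computed. The ratio code was tested on simulated data. Named genes were all members, the listed junction genes, keratinocyte markers and the 5 genes nearest in profile. Alternatives included edgeR 4.0.16 TMM factors in R 4.3.3.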

Additional observations from a re-analysis of the deposited data

How the results depend on the processing

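Between the sections, the summed log2 ratio of -1.06 was -0.79 with clustering at resolution 0.5, -0.98 in the 2 uppermost spots of each array column, -0.74 in the 15% of spots richest in keratinocyte markers, -1.40 over all spots, -1.01 after thinning, -2.12 with the TMM factor and 0.38 per keratinocyte marker UMI. Without the cluster enriched for sebaceous gland markers, an alternative added after seeing the data, it was -0.77. Of 120 values for single members under these alternatives, 114 kept their direction. The reversals were Jup at 0.92 and Dsc3 at 0.78 per keratinocyte marker UMI and Pkp3 at -0.24 over all spots and -0.81 with the TMM factor, and Dsg3, whose interval holds 0, was -0.40 and -0.88 under the same settings. Per keratinocyte marker UMI Pkp3 was 1.70 and Dsg3 1.63. The Dsc1 to Dsc3 change of -1.12 kept its direction in 10 of 10 alternatives that can move it, the TMM factor and the marker scale leaving a ratio of 2 genes as it is, and was -0.77 at resolution 0.5, -0.66 in the uppermost spots, -0.42 over all spots, -0.73 without the sebaceous marker cluster and -0.79 as a mean over spots.

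The ratio of epidermal to other spots was 1.33 in the fl/fl section at resolution 0.5, and in the K14-Cre section 2.51 at resolution 0.5, 2.49 in the 15% of spots richest in markers and 2.19 without the sebaceous marker cluster. Surface against deep spots gave 2.51 and 4.22 by distance from epidermal spots, and 2.80 and 4.44 in array columns under 150, the latter added after seeing the data. In the 2 uppermost spots the Dsc1 to Dsc3 change along the index in the fl/fl section was 1.25. The index limits of the fl/fl section gave no value in the other, where 17 spots above the upper limit held 7 Dsc1 and 0 Dsc3 UMIs. The cause of these shifts was not tested. Depth limits Pkp1, Dsc2, Perp, Dsg3 and Dsc3 most in the deep spots of the K14-Cre section, which held 0 to 5 UMIs of each at rank 6 or more. No paired analysis was possible because each genotype has 1 section.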
